A study of Homo sapiens with 44 samples.

Results

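Aminoacyl-tRNA synthetases are the enzymes that join each amino acid to its tRNA. The 38 genes described here were picked by symbol out of 19923 genes in the count tables: the symbols made of 1 amino acid letter, ARS and an optional 1 or 2, together with EPRS1, FARSA, FARSB and TARS3. Of these, 21 encode cytosolic enzymes and 17, with the suffix 2, encode enzymes that are imported into mitochondria. The rule used no measured values, but the members were chosen with earlier results of these data known.

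Cells carry separate sets of these enzymes for the cytosol and for mitochondria, because mitochondria translate their own mRNAs with their own tRNAs. Cytosolic synthetases fall into a multisynthetase complex, which holds EPRS1, IARS1, KARS1, LARS1, MARS1, QARS1 and RARS1 among others, and enzymes outside it. GARS1 and KARS1 each encode both the cytosolic and the mitochondrial form, and the mitochondria have no glutaminyl enzyme of their own. ATF4, the transcription factor of the amino acid response, is known to activate many cytosolic synthetase genes.

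The libraries came from Kelly and NGP, human neuroblastoma lines labelled as wild type with amplified MYCN, and from subcutaneous Kelly tumours in nude mice. STM2457 is an inhibitor of METTL3, which adds the m6A mark (N6-methyladenosine) to transcripts. Kelly cells were kept with 8 µM STM2457, or with DMSO, during 1 day or 6 days, and NGP cells during 6 days. Tumour-bearing mice had 50 mg/kg or vehicle, labelled DMSO, once a day over 14 days. Each condition had input libraries, which measure poly(A) RNA, and libraries of fragments pulled down with an m6A antibody, called RIP. Groups held 3 libraries in culture and 2 in the xenograft, where human Kelly cells had grown among mouse host cells. Nothing in the labels says whether replicates were separate cultures, so p-values measure the spread between these libraries, which may be technical.

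Counts assigned to genes ran from 2.14 to 36.50 M per library over all 44 libraries, lowest in the xenograft inputs (2.14 to 7.27 M). Among the Kelly inputs at 6 days, treated replicate 3 had 5.77 M and treated replicates 1 and 2 had 28.67 and 31.49 M. All 10 neuroblastoma markers examined were counted in every group of inputs. Of 6 human stroma markers, COL1A2, DCN and LUM were at 0 in both xenograft groups and COL3A1 in the treated one, and the summed level of the list overlapped between vehicle (113 to 144 CPM) and treated tumours (114 to 165 CPM). The sum of 4 endothelial markers did not overlap, at 15.3 to 17.6 CPM with vehicle and 9.79 to 12.5 CPM with STM2457. Only 1 of the 4 reached a mean of 1 CPM in each group. PECAM1 was at 0 with vehicle, and CDH5 and KDR were at 0 with STM2457. The sum of 3 Schwann markers did not overlap either (0.55 to 5.58 and 0 to 0.466 CPM). Of these, 1 reached a mean of 1 CPM with vehicle and 0 with STM2457. The sum of 6 blood markers overlapped (0.465 to 6.05 and 0.932 to 7.52 CPM). The part of other cells in the xenograft values was not tested. The CPM of the marker lists are counts scaled to the library total. All other CPM are counts scaled to library size by TMM, a trimmed mean over genes that sets the typical gene equal between libraries. These are scaled within 1 experiment and are not compared between experiments. In bulk RNA, fewer cells with a transcript and less of it per cell cannot be told apart.

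Because ATF4 binds a known DNA element, the promoters of the members were searched for its core TGATGNAA on both strands. RefSeq promoters (GRCh38.p14, 250 bases before to 50 after the start site) matched 30 of the 38 members. The core was present in 7 of 16 cytosolic promoters (43.8%) and in 1 of 14 mitochondrial ones (7.14%), against 4.46% of 27305 genes in the same table. The 30-base windows are shown 5′ to 3′ on the strand of the gene, with the match in capitals. In NARS1 and YARS2 it lies on the gene's own strand, and in the others on the opposite one. All 7 cytosolic members shown here fell in Kelly cells at 6 days, as given below, and YARS2 was not called there.
CARS1: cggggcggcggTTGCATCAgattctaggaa
GARS1: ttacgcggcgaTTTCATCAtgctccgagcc
AARS1: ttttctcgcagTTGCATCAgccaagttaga
MARS1: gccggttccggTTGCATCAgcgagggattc
TARS1: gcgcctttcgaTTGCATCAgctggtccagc
NARS1: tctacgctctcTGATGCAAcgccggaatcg
IARS1: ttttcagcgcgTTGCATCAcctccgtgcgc
YARS2: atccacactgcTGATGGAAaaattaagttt

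The window of CARS1 is chr11:3057407-3057436, and that of GARS1 is chr7:30594834-30594863. AARS1 has it at chr16:70289675-70289704, MARS1 at chr12:57488053-57488082 and TARS1 at chr5:33440956-33440985. Those of NARS1 and IARS1 are chr18:57621804-57621833 and chr9:92293692-92293721, and the YARS2 window is chr12:32756076-32756105. Counted from the RefSeq start site, the first base of the match lies at -2 in CARS1, -33 in GARS1, -4 in MARS1 and -13 in IARS1. It lies at 3 in TARS1 and 15 in NARS1, just after the start site, and at -187 in AARS1 and -197 in YARS2. 6 of the 7 cytosolic matches are thus within 33 bases of a start site. A match describes letters and is no measure of binding.

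The ETS core CCGGAAGN was present in promoters of both classes at a similar share, 9 of 16 cytosolic (56.2%) and 7 of 14 mitochondrial (50%), against 12.2% of all genes in the table. HARS1 and HARS2, the cytosolic and the mitochondrial histidyl enzymes, are transcribed in opposite directions from 1 shared stretch of chromosome 5. Both of their RefSeq windows hold the same pair of ETS cores. The window at chr5:140691361-140691390, on the HARS1 strand, is shown because both genes share it.
HARS1: cgactcgatagCCGGAAGTcatccttgctg

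The first comparison asked how 1 day of STM2457 changed input levels in Kelly cells. Most cytosolic synthetases fell: 15 of 21 fell and 1 rose, with a median log2 change of -0.27 (-0.47 to 0.17), while the median of all 13246 genes tested was 0.0074. Mitochondrial synthetases had 1 fall and 2 rises among 17, with a median of -0.071. Over all genes tested, 8.06% fell and 9.41% rose. A gene was called to rise or fall at a Benjamini-Hochberg adjusted p under 0.05 over all genes in edgeR's quasi-likelihood test. The falls were small: 0 members fell past a factor of 2, as did 0.174% of all genes.

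The largest fall was that of WARS1, the interferon-inducible tryptophanyl enzyme. It had 48.0, 42.9 and 46.8 CPM with DMSO and 36.1, 31.1 and 32.2 CPM with STM2457. The groups did not overlap, and the log2 change was -0.47 (SE 0.0814, edgeR adjusted p 0.000695).

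MARS1, the methionyl enzyme of the complex, had 433, 412 and 407 CPM with DMSO and 306, 297 and 310.1 CPM with STM2457, a log2 change of -0.46 (SE 0.0438, edgeR adjusted p 2.71e-06). YARS1 fell by 0.42 on the log2 scale, CARS1 by 0.41 and GARS1 by 0.37. MARS1 shares 12.4% of its exon bases with DDIT3 and ARHGAP9, and fragments on shared bases were not assigned. In 16 of the 21 cytosolic genes all treated libraries were below all DMSO libraries, against 16.0% of all genes tested.

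The exceptions among cytosolic genes were few. HARS1 rose, from 148, 139 and 141 CPM with DMSO to 164, 159.8 and 158 CPM with STM2457 (log2 change 0.17, edgeR adjusted p 0.0208). SARS1, the seryl enzyme, and QARS1, the glutaminyl enzyme, had overlapping groups and were not called, at -0.021 (SE 0.0433) and -0.0078 (SE 0.0471). TARS3, a second cytosolic threonyl enzyme, was low at 2.29, 1.56 and 2.71 CPM with DMSO.

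Among mitochondrial genes, FARS2, the phenylalanyl enzyme, had 17.7, 15.2 and 16.5 CPM with DMSO and 20.1, 23.5 and 24.2 CPM with STM2457, and its treated libraries were all higher. Its rise was 0.46 on the log2 scale (SE 0.106, edgeR adjusted p 0.00647). YARS2 rose by 0.31 (edgeR adjusted p 0.00606). HARS2 fell from 51.9, 50.0 and 50.8 CPM with DMSO to 42.7, 42.3 and 46.1 CPM with STM2457, a change of -0.22 (edgeR adjusted p 0.0366). HARS1 and HARS2 share exon bases with each other and are related in sequence, so their counts are less certain than those of the other members. The calls of both were lost when some of the single libraries were left out: HARS1 without DMSO replicate 3 (0.16) or treated replicate 1 (0.16), 2 (0.18) or 3 (0.18), and HARS2 without DMSO replicate 1 (-0.20) or treated replicate 1 (-0.20) or 2 (-0.20).

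When the 22 inputs of all experiments were modelled together, with a single estimate of the spread, 0 of 21 cytosolic and 0 of 17 mitochondrial genes were called at 1 day, with log2 changes close to those above (WARS1 -0.48, FARS2 0.44).

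At 6 days 12 of the 21 cytosolic synthetases fell in Kelly cells and 0 rose, with a median log2 change of -0.47 against -0.0045 over 12773 genes tested, of which 14.7% fell and 11.9% rose. The mitochondrial genes had 1 fall and 1 rise among 17, with a median of 0.016. With the 22 inputs modelled together, 11 cytosolic genes were called, and the share of all genes called in that fit is not given here. In 14 of the 21 cytosolic genes all treated libraries were below all DMSO libraries, against 21.8% of all genes tested. The summed level of the 6 stroma markers was 137 to 143 CPM with DMSO and 101 to 123 CPM with STM2457, with COL1A2 at 0 in the DMSO libraries, and that of the 10 neuroblastoma markers 31100 to 31900 and 34600 to 38400 CPM. Their part in the changes was not tested.

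CARS1, the cysteinyl enzyme (chromosome 11, 3000922 to 3057613, minus strand, GRCh38), fell most. Its levels were 98.6, 91.6 and 92.8 CPM with DMSO and 36.6, 39.3 and 42.8 CPM with STM2457. Treated libraries held less than 50% of the DMSO level, with a log2 change of -1.27 (SE 0.078, edgeR adjusted p 1.03e-08).

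GARS1, the glycyl enzyme of both compartments (chromosome 7, 30594838 to 30634033, plus strand), had 509.5, 493 and 491 CPM with DMSO and 248, 229 and 238 CPM with STM2457. The change was -1.06 on the log2 scale (SE 0.0598, edgeR adjusted p 4.2e-09). CARS1 and GARS1 were the 2 members that fell past a factor of 2, as 2.22% of all genes did.

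AARS1, the alanyl enzyme (chromosome 16, 70252295 to 70289543, minus strand), had 308, 296 and 313 CPM with DMSO and 154, 159.8 and 149.9 CPM with STM2457 (log2 change -0.98, SE 0.0599, edgeR adjusted p 1.03e-08). YARS1, the tyrosyl enzyme, had 267, 259.8 and 259 CPM with DMSO and 139.5, 138 and 135 CPM with STM2457 (log2 -0.92). MARS1 (chromosome 12, 57475445 to 57517569, plus strand) had 301, 295 and 317 CPM with DMSO and 161, 157 and 166 CPM with STM2457 (log2 -0.92). In each of these the treated libraries stood at little more than 50% of the DMSO libraries, far outside their spread. The other called falls were WARS1 (-0.84), TARS1 (-0.70), NARS1 (-0.63), SARS1 (-0.59), EPRS1 (-0.48), IARS1 (-0.47) and FARSA (-0.18).

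By group of cytosolic enzymes the counts differed, which was not tested. Of the 13 enzymes outside the multisynthetase complex 9 fell, with a median of -0.63. Of the 8 enzymes in the complex 3 fell, namely EPRS1, IARS1 and MARS1, with a median of -0.12. At 1 day in Kelly cells the medians were close, at -0.27 outside the complex and -0.23 in it. In NGP at 6 days the order was reversed, at -0.076 outside the complex and -0.28 in it. QARS1 had 187, 179 and 202 CPM with DMSO and 186, 205 and 195 CPM with STM2457, overlapping groups with a log2 change of 0.044 (SE 0.066). KARS1, the lysyl enzyme of both compartments, was not called at -0.18 (edgeR adjusted p 0.0559), and became called without treated replicate 1 (-0.19). TARS3 was not called at -0.43 (SE 0.243). LARS1, RARS1 and HARS1 lay between -0.078 and -0.041 and were not called either.

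The promoters shown above were set beside these calls. Of the cytosolic genes that fell at 6 days, 11 had a RefSeq promoter and 7 of these held TGATGNAA. Of those not called, 5 had a promoter and 0 held it. The 4 that fell without the core in this window were EPRS1, FARSA, SARS1 and WARS1. These counts describe which letters are present and were not tested.

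**Figure D1:**
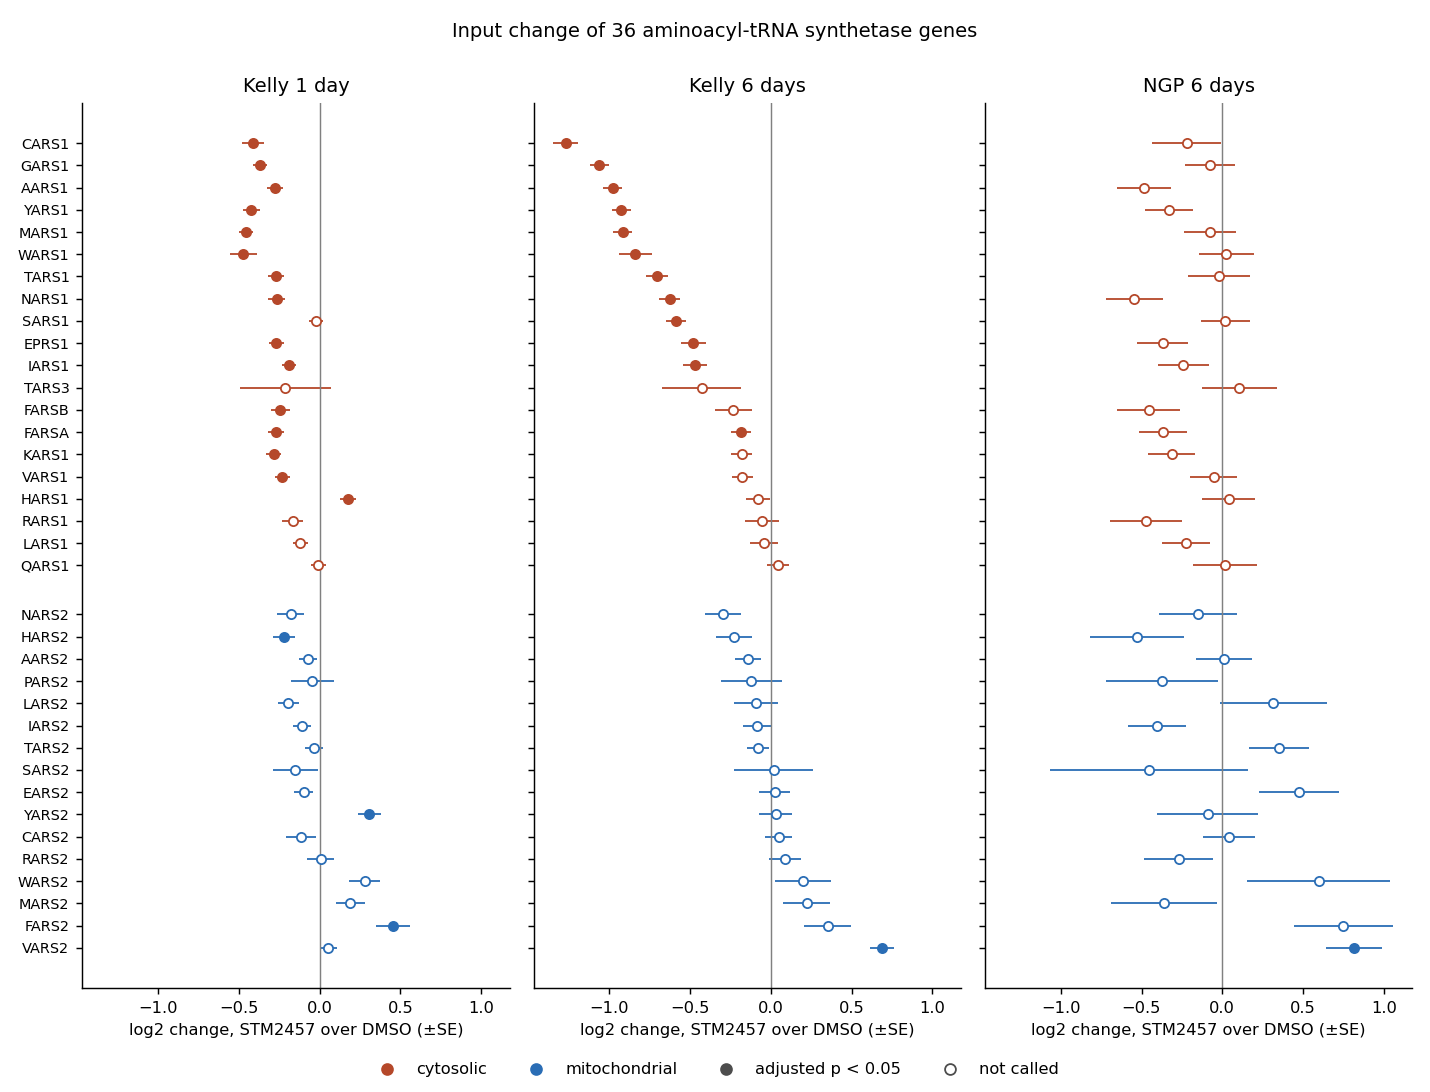
Log2 change of input with STM2457 (x axis, points with bars of 1 SE) for 36 of the 38 genes (y axis), in 3 panels for Kelly at 1 day, Kelly at 6 days and NGP at 6 days; filled points passed the adjusted p of 0.05. Of the 21 cytosolic genes 15 fell at 1 day and 12 at 6 days in Kelly cells, against 1 mitochondrial fall at each time; the filled mitochondrial rises are FARS2 and YARS2 at 1 day in Kelly and VARS2 at 6 days in both lines.

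Of the mitochondrial genes VARS2, the valyl enzyme (chromosome 6, 30914205 to 30926459, plus strand), moved against the cytosolic set. In Kelly cells at 6 days it had 58.8, 59.4 and 60.1 CPM with DMSO and 88.3, 99.6 and 100.2 CPM with STM2457. All treated libraries were higher, and the rise was 0.69 on the log2 scale (SE 0.0726, edgeR adjusted p 4.04e-06).

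In NGP cells VARS2 had 84.9, 54.9 and 82.1 CPM with DMSO and 129.5, 125 and 138 CPM with STM2457, again without overlap. This was a rise of 0.82 (SE 0.174, edgeR adjusted p 0.00682), not called when treated replicate 1 was left out (0.82). At 1 day in Kelly cells VARS2 was at 0.055 (SE 0.055).

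**Figure D2:**
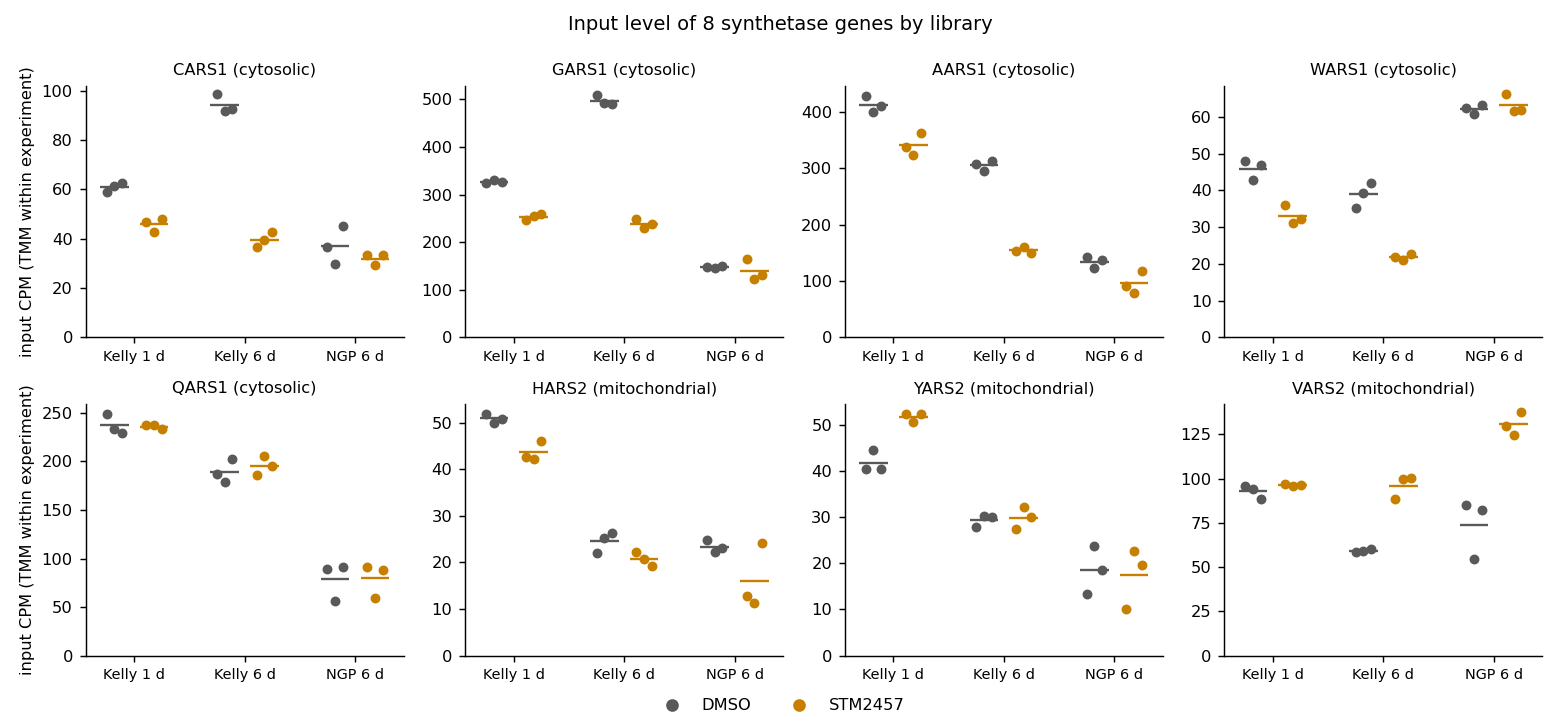
Input CPM (y axis, from 0) of 8 synthetase genes in each library of the 3 culture experiments (x axis), grey for DMSO and orange for STM2457, with a line at the mean of 3 libraries; CPM were scaled within each experiment. CARS1, GARS1, AARS1 and WARS1 show the separation at 1 and 6 days in Kelly cells, QARS1 overlaps in all 3 experiments, and VARS2 is higher with STM2457 at 6 days in both lines.

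Between 1 and 6 days, 11 cytosolic genes fell at both times in Kelly cells: AARS1, CARS1, EPRS1, FARSA, GARS1, IARS1, MARS1, NARS1, TARS1, WARS1 and YARS1. Calls at 1 day alone included FARSB, KARS1 and VARS1, and SARS1 was called at 6 days alone. The difference of the responses was tested as the interaction of STM2457 with the experiment. It was negative, a deeper fall at 6 days, for 9 of 21 cytosolic genes against 4.73% of 13773 genes tested, and positive for 1 mitochondrial gene, VARS2, against 3.67%.

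The largest differences were those of CARS1, at -0.84 (SE 0.101, edgeR adjusted p 6.63e-06), and AARS1, at -0.69 (SE 0.0791, edgeR adjusted p 3.66e-06). GARS1 followed at -0.68 and SARS1 at -0.55. VARS2 differed by 0.65 (SE 0.0897, edgeR adjusted p 4.01e-05). The call of 1 day for FARSB, KARS1 and VARS1 and its absence at 6 days is not a tested difference, since none of these was called in the interaction. Each day was a separate experiment with its own controls, so day and experiment cannot be told apart.

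In NGP cells at 6 days 0 of 21 cytosolic genes were called by edgeR, against 2.16% of 12289 genes that fell and 2.07% that rose. The test by DESeq2 also called 0. Of the 21 genes 16 lay below 0, the median was -0.22 against 0.010 over all genes, and 9 had an unadjusted p under 0.05. Of all 12289 genes 6247 lay above 0 and 2154 had an unadjusted p under 0.05. The lowest was NARS1, the asparaginyl enzyme, with 102 ± 3.31 CPM with DMSO (SD, n = 3) and 56.0, 65.0 and 87.8 CPM with STM2457. Its groups did not overlap, at a log2 change of -0.55 (SE 0.177, edgeR adjusted p 0.0836). Modelling the 22 inputs together, with a single estimate of the spread, called 6 cytosolic genes. The share of all genes called in that fit is not given here, so this count is no result about the members.

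Of the genes that fell most in Kelly cells, AARS1 was among the lowest in NGP (-0.48, edgeR adjusted p 0.112), while CARS1 and GARS1 were nearer to 0. CARS1 had 36.6, 29.7 and 45.0 CPM with DMSO and 33.4, 29.2 and 33.2 CPM with STM2457, overlapping groups (log2 -0.22, SE 0.214). GARS1 had 148, 146 and 149 CPM with DMSO and 164, 123 and 132 CPM with STM2457 (log2 -0.076, SE 0.154). KARS1 was at -0.31, QARS1 at 0.019 and TARS3 at 0.11, none of them called.

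The response of Kelly at 6 days was lower than that of NGP for 4 of 21 cytosolic genes, against 0.796% of 13448 genes tested, and for 0 of 17 mitochondrial genes (0 with an unadjusted p under 0.05, and 0 by DESeq2). The differences were -1.02 for CARS1 (SE 0.201, edgeR adjusted p 0.0128) and -0.96 for GARS1 (SE 0.147, edgeR adjusted p 0.00173). WARS1 differed by -0.84 and MARS1 by -0.82. This test used 1 estimate of the spread for both experiments, at a biological coefficient of variation of 0.171. Fitted alone, the inputs had 0.0913 in Kelly at 6 days and 0.24 in NGP. Leaving out single libraries gave between 1 and 6 calls. CARS1 was lost without Kelly DMSO replicate 1 (-0.98) or Kelly treated replicate 1 (-0.95). WARS1 was lost without Kelly DMSO replicate 2 (-0.83) or 3 (-0.78) or Kelly treated replicate 1 (-0.83) or 2 (-0.81). MARS1 was lost without any of the 6 Kelly libraries, without NGP DMSO replicate 3 or without NGP treated replicate 1, at values from -0.84 to -0.77.

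In the xenograft 0 of 37 genes tested were called, as were 0% of all 11329 genes (TARS3 did not pass the filter on low counts). Of the 37 genes 3 had an unadjusted p under 0.05, as had 968 of the 11329, a similar share. DESeq2 called 0 members as well. CARS1 had 33.9 and 34.3 CPM in vehicle tumours and 29.6 and 58.7 CPM in treated ones. GARS1 had 262 and 252 CPM in vehicle tumours and 339.8 and 355 CPM in treated ones. GARS1 was thus higher in both treated tumours, at a log2 change of 0.43 (SE 0.151, edgeR adjusted p 0.544). Modelling the 22 inputs together, with a single estimate of the spread, called 6 cytosolic and 4 mitochondrial genes there. The share of all genes called in that fit is not given here, so these counts are no result about the members. The biological coefficient of variation was 0.448 there, with 2 libraries a group, against 0.0725 in Kelly at 1 day.

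The balance of both classes was summarised per input library as the mean log2(CPM + 1) of the cytosolic genes minus that of the mitochondrial genes. In Kelly at 1 day it was 1.76, 1.71 and 1.79 with DMSO and 1.57, 1.504 and 1.49 with STM2457. In Kelly at 6 days it was 2.12, 2.17 and 2.19 with DMSO and 1.75, 1.63 and 1.60 with STM2457. NGP had 2.15, 2.13 and 2.103 with DMSO and 1.92, 1.76 and 1.98 with STM2457. Treated and DMSO libraries did not overlap in the 3 culture experiments. In the xenograft the 4 values lay between 1.64 and 1.73 and overlapped. The measure is a score over the chosen genes and is given with no test.

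**Figure D3:**
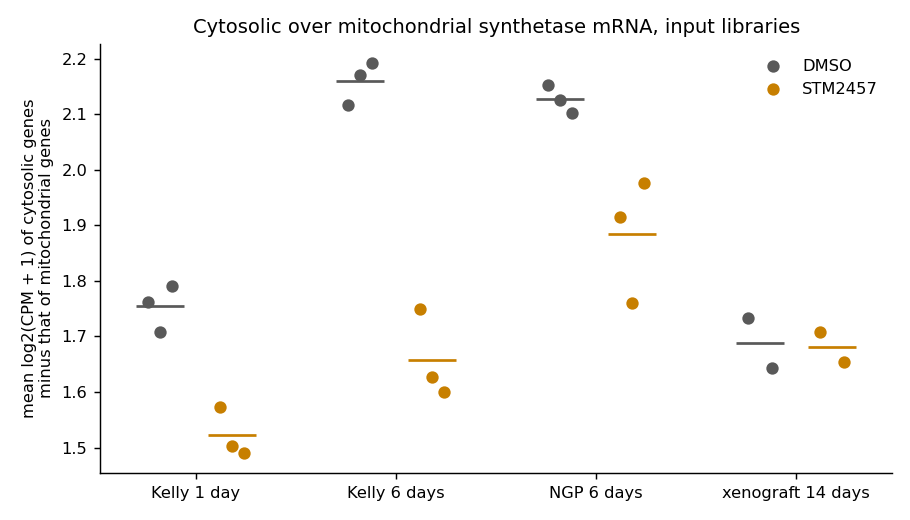
Mean log2(CPM + 1) of the 21 cytosolic genes minus that of the 17 mitochondrial genes (y axis) in each input library, by experiment (x axis), grey for DMSO and orange for STM2457, with a line at the group mean. Treated libraries lie below DMSO libraries in the 3 culture experiments (1.49 to 1.57 against 1.71 to 1.79 in Kelly at 1 day), and the xenograft groups overlap between 1.64 and 1.73.

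Levels of different genes were compared per exon length, as RPKM on a scale common to all inputs. With DMSO the median cytosolic gene had 31.5 RPKM in Kelly at 1 day and the median mitochondrial gene 11.7 RPKM, a ratio of 2.68. At 6 days they had 34.5 and 7.15 RPKM (ratio 4.83), and with STM2457 21.7 and 6.24 RPKM (ratio 3.48). In NGP the DMSO ratio was 3.37, and in the xenograft 2.65. The classes overlapped widely in all groups.

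SARS1 was the highest member in Kelly cells, at 100.0 ± 5.37 RPKM at 1 day and 177 ± 3.90 RPKM at 6 days with DMSO (SD, n = 3). FARSA, the alpha subunit of the phenylalanyl enzyme, was highest in NGP at 106 ± 7.55 RPKM (SD, n = 3), and in the xenograft FARSA and SARS1, at 87.2 ± 4.29 and 85.8 ± 4.68 RPKM (SD, n = 2), lay within their spread. TARS3 was the lowest cytosolic gene in Kelly cells, at 0.421 ± 0.115 RPKM at 1 day (SD, n = 3), and stood at 5.91 ± 0.727 RPKM in NGP (SD, n = 3), above CARS1 there at 3.58 ± 0.745 RPKM (SD, n = 3). Among mitochondrial genes IARS2, the isoleucyl enzyme, led in Kelly at 1 day with 28.9 ± 1.77 RPKM and TARS2, the threonyl enzyme, at 6 days with 22.7 ± 0.702 RPKM (SD, n = 3). In NGP these did not differ beyond their spread. SARS2 was the lowest mitochondrial gene in both Kelly experiments, at 2.41 ± 0.221 and 1.199 ± 0.0563 RPKM (SD, n = 3), but 57% of its exon bases are shared with MRPS12 and a neighbouring gene, so part of its fragments were left uncounted.

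The DMSO libraries themselves differed between the Kelly experiments. From 1 to 6 days 12 of 17 mitochondrial genes were lower and 1 was higher, with a median of -0.51, and of 21 cytosolic genes 10 were lower and 8 higher. Of 13221 genes tested 41.1% were lower and 37.9% higher, with a median of -0.058. The cytosolic genes split by complex: 6 of the 8 in the multisynthetase complex were lower, led by RARS1 (-1.64), IARS1 (-1.49), LARS1 (-1.39) and EPRS1 (-1.17). Of the 13 others 7 were higher, among them CARS1 (0.95), GARS1 (0.93) and SARS1 (0.81).

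CARS1 and GARS1, which fell most with STM2457 at 6 days, were thus higher in the DMSO libraries of that day than in those of 1 day. On the common scale CARS1 had 5.21 ± 0.116 RPKM with DMSO and 3.88 ± 0.227 RPKM with STM2457 at 1 day (SD, n = 3). At 6 days CARS1 had 10.2 ± 0.392 and 4.34 ± 0.333 RPKM (SD, n = 3). GARS1 had 70.1 ± 0.403 and 53.9 ± 1.58 RPKM at 1 day and 135 ± 2.69 and 65.7 ± 1.95 RPKM at 6 days (SD, n = 3). Levels set side by side between days depend on the scale. With library totals the cytosolic DMSO median was 36.4 RPKM at 1 day and 30.7 at 6 days, against 31.5 and 34.5 on the common scale. CARS1 and GARS1 levels with library totals are not given here. On the common scale the treated level of GARS1 was higher at 6 days. Treated CARS1 libraries overlapped between days (3.63 to 4.08 and 3.98 to 4.64 RPKM). For both genes the DMSO level differed more on that scale. AARS1 was different, with 78.8 ± 3.97 RPKM at 1 day and 73.5 ± 2.02 RPKM at 6 days with DMSO and 37.8 ± 1.83 RPKM with STM2457 at 6 days (SD, n = 3). Between the lines at 6 days, GARS1 (-1.93), CARS1 (-1.51) and AARS1 (-1.36) were lower in NGP than in Kelly with DMSO, where 11 of 21 cytosolic genes were lower and 6 higher against 31.7% and 29.1% of 12940 genes.

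The genes around the synthetases were described by lists. Of 24 genes of the ATF4 amino acid response, 14 fell and 1 rose in Kelly at 1 day (median -0.26), against 8.06% and 9.41% of all genes. At 6 days 23 fell and 0 rose (median -1.09), against 14.7% and 11.9% of all genes. ATF4 itself fell by 0.31 at 1 day and 0.78 at 6 days on the log2 scale (edgeR adjusted p 0.000104 and 1.39e-07). ASNS, asparagine synthetase, fell by 2.06 at 6 days, and CHAC1, a glutathione-degrading enzyme, by 3.93. This list was chosen with earlier results of these libraries known, so its direction is no independent evidence. In NGP 1 of 24 fell, STC2 (-1.53), where 2.16% of all genes fell. In the xenograft 0 of 23 tested were called, with 2 at an unadjusted p under 0.05, where 968 of 11329 genes had such a p.

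The list also moved with the DMSO levels. Of its 24 genes 18 were higher and 1 lower in DMSO at 6 days than at 1 day (median 0.78), against 37.9% and 41.1% of all genes. In NGP 18 were lower and 3 higher than in Kelly at 6 days, against 31.7% and 29.1%. The part of these shifts in the synthetase changes was not tested.

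Partners of the cytosolic enzymes were called in both directions. Of 9 tested (scaffolds of the complex, the tRNA exporter XPOT and elongation factors), 1 rose and 0 fell at 1 day, where 9.41% of all genes rose and 8.06% fell. The calls of 6 days were 2 rises and 2 falls, where 11.9% of all genes rose and 14.7% fell. EEF2, which moves the ribosome along, rose by 0.36 on the log2 scale and EEF1A1, which brings charged tRNAs to the ribosome, by 0.24 at 6 days, and XPOT fell by 0.38. Partners of the mitochondrial enzymes had 1 rise and 1 fall among 15 at 1 day, and 0 rises and 1 fall among 14 at 6 days. HSD17B10, a subunit of mitochondrial RNase P, fell at both times (-0.34 and -0.46). Among the NGP inputs 0 genes of either partner list were called, with 1 gene of each at an unadjusted p under 0.05, where 2154 of 12289 genes had such a p.

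The RIP libraries asked how much of each transcript the m6A antibody recovered. The measure is the log2 ratio of RIP over input in DMSO libraries, tested in 1 model of input and RIP libraries. TMM sets the typical gene near 0, so a ratio is relative to the typical gene and not an absolute m6A level. In Kelly at 1 day 17 of 21 cytosolic genes were lower in RIP than in input and 2 were higher, with a median of -1.89 against -0.066 over 13669 genes, of which 34.3% were lower and 33.3% higher. Of the 17 mitochondrial genes 9 were higher and 5 lower, with a median of 0.40.

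Kelly cells at 6 days had 17 lower and 1 higher among cytosolic genes (median -2.41) and 7 higher and 5 lower among mitochondrial ones (median 0.15), where 29.2% of 13324 genes were lower and 28.8% higher. In NGP the cytosolic genes lay near the typical gene, with 7 lower and 3 higher (median -0.057). The mitochondrial genes there had 8 higher and 4 lower (median 0.57), against 26.5% of 13088 genes lower and 29% higher. In the xenograft 1 of 38 members, VARS1, was lower, against 2.15% of 12626 genes lower and 1.61% higher.

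Another scale for the RIP libraries, set by the 13 mRNAs encoded in the mitochondrial genome, moved the median over all genes to 1.57 in Kelly at 1 day and 4.77 at 6 days, to 0.86 for NGP and to 2.02 for the xenograft. On this scale the cytosolic median was -0.26, 2.60, 0.66 and 0.85 in the same order, so its sign was positive in the last 3. The cytosolic median minus the mitochondrial one was below 0 on both scales in all 4 experiments, at -2.29, -2.56, -0.63 and -1.72 under TMM and -2.30, -2.66, -0.72 and -1.48 on the other scale. Rescaling shifts all genes by about the same amount, so this likeness is no separate check of the classes.

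MARS2, the mitochondrial methionyl enzyme (chromosome 2, 197705369 to 197708395, plus strand), had the highest ratio of all members on average. In Kelly at 1 day it had 29.4, 27.2 and 27.3 CPM in input and 343, 349 and 348 CPM in RIP with DMSO. All RIP libraries were more than 10 times higher, a log2 ratio of 3.63 (SE 0.0905, edgeR adjusted p 2.5e-12). At 6 days it had a ratio of 3.03 and in NGP of 1.59. The gene has a single exon of 3027 bp.

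PARS2, the prolyl enzyme, with 2 exons, had 13.6, 11.6 and 10.1 CPM in input and 96.9, 105 and 112 CPM in RIP in Kelly at 1 day, a log2 ratio of 3.15. It was at 3.57 at 6 days and 1.01 in NGP, where the call was lost without DMSO replicate 1 (0.32) or 2 (1.07). WARS2 and LARS2, the tryptophanyl and leucyl enzymes, came next, called in all 3 culture experiments at 0.94, 2.31 and 2.01 and at 2.02, 1.70 and 1.16.

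VARS1, the cytosolic valyl enzyme (chromosome 6, 31777518 to 31795752, minus strand), had the lowest ratio as a mean over the 3 culture experiments, while at 6 days in Kelly cells several members, IARS1 among them, were lower. With DMSO in Kelly at 1 day it had 523, 545 and 481 CPM in input and 26.3, 31.3 and 17.8 CPM in RIP. The log2 ratio was -4.36 (SE 0.267, edgeR adjusted p 8.14e-09), with -3.63 at 6 days and -3.27 in NGP. IARS1 was at -2.87, -5.23 and -1.28 in these experiments, and QARS1 at -3.20, -3.80 and -1.46. IARS2 was low as well, at -3.81, -4.04 and -0.95, so the order of the classes had exceptions. On the scale of mitochondrial mRNAs VARS1, QARS1 and IARS2 were above 0 in Kelly at 6 days (1.26, 1.36 and 0.60).

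Exon structure was taken from the coordinates in the tables with overlapping exons merged. The median longest exon was 1143 bp in cytosolic genes (360 to 5124) and 2049 bp in mitochondrial genes (549 to 7376). The 9 mitochondrial genes with an exon of at least 2000 bp had a median ratio of 1.45, as the mean over the culture experiments, and the other 8 a median of -1.62. CARS2, the cysteinyl enzyme, was the exception among the 9, at -1.34. Of the cytosolic genes 3 had such an exon, CARS1, FARSB and LARS1, and their median was -1.02, against -1.53 for the other 18. Annotated exons include all isoforms, so a long exon need not be the one these cells use.

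Across genes the longest exon and the mean ratio had a Spearman correlation of 0.68 over the 17 mitochondrial genes, 0.30 over the 21 cytosolic ones and 0.49 over all 38. The genes were read from the same libraries, and the values are a description. In single experiments the correlation over the mitochondrial genes was 0.71 in Kelly at 1 day, 0.62 at 6 days and 0.45 in NGP. Over all genes tested the correlation was 0.22 in Kelly at 1 day, 0.22 at 6 days and 0.27 in NGP. The number of merged exons had a correlation of -0.46 with the mean ratio over all 38 members. Over all genes tested that of exon number was -0.25, -0.21 and -0.079 in the same 3 experiments. The threshold of 2000 bp was chosen after the exon lengths were seen.

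**Figure D4:**
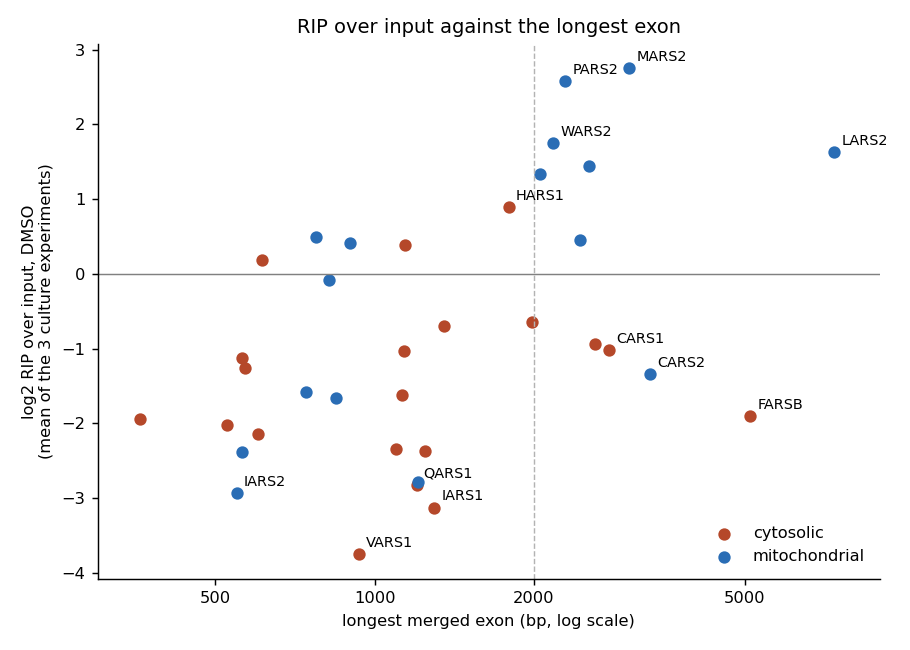
Log2 ratio of RIP over input with DMSO, as the mean of 3 culture experiments (y axis, TMM scale), against the longest merged exon in bp (x axis, log scale) for 36 of the 38 genes, red for cytosolic and blue for mitochondrial, with a dashed line at 2000 bp. MARS2, PARS2, WARS2 and LARS2 lie highest, beyond the line, and VARS1, IARS1, IARS2 and QARS1 lie lowest, before it.

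The change of RIP over input with STM2457 was tested next. In Kelly at 1 day the ratio rose for 7 of 21 cytosolic genes and fell for 1, and rose for 1 and fell for 1 of 17 mitochondrial genes, against 9.53% of 13669 genes that rose and 7.62% that fell. The median change was 0.84 for cytosolic genes and -0.22 for mitochondrial genes, with -0.028 over all genes.

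KARS1 had the largest change among called members; NARS2 was at -2.55 and was not called (edgeR adjusted p 0.0809). KARS1 had 125, 145 and 126 CPM in RIP with DMSO and 297, 327 and 314 CPM with STM2457, while its input went from 323, 282 and 290.5 CPM to 234, 239 and 244 CPM. RIP was higher and input lower in all treated libraries, and the ratio rose by 1.57 on the log2 scale (SE 0.108, edgeR adjusted p 2.25e-06).

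FARSA had 30.0, 17.0 and 27.6 CPM in RIP with DMSO and 43.5, 55.6 and 40.5 CPM with STM2457, a change of 1.21 in the ratio (edgeR adjusted p 0.00471). IARS2 had a change of 1.35 (edgeR adjusted p 0.00842), lost without DMSO replicate 2 (1.26). The other rises were NARS1 (1.197), RARS1 (1.12), TARS1 (1.09), LARS1 (0.90) and QARS1 (0.87).

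SARS1 went the other way. It had 528, 530.3 and 539 CPM in RIP with DMSO and 324, 328 and 298 CPM with STM2457, and its input groups overlapped. The ratio fell by 0.69 on the log2 scale (SE 0.081, edgeR adjusted p 9.77e-05). EARS2, the mitochondrial glutamyl enzyme, fell by 0.56 (edgeR adjusted p 0.015), a call lost without the low-count filter (-0.42) and without DMSO replicate 1 (-0.54) or 2 (-0.49).

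The sign of these changes depended on the scale. On the scale of mitochondrial mRNAs the median over all genes was -1.47 in Kelly at 1 day. There KARS1 was at 0.13 and not called, and FARSA (-0.25) and IARS2 (-0.081) were below 0. The cytosolic median was -0.60 and the mitochondrial one -1.65.

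In Kelly at 6 days 1 cytosolic gene rose, TARS1, against 1.26% of 13324 genes that rose and 0.803% that fell, and 0 mitochondrial genes were called (2 with an unadjusted p under 0.05, 1 called by DESeq2). Of the 13324 genes 2207 had an unadjusted p under 0.05. TARS1 had 56.9, 78.0 and 58.9 CPM in RIP with DMSO and 77.4, 120.0 and 213 CPM with STM2457, overlapping groups in which treated replicate 3 was far above the others. Its change of 1.78 (SE 0.408, edgeR adjusted p 0.0473) was lost with RLE size factors (1.72) and without any DMSO replicate (1.37, 1.95 and 1.39) or treated replicate 2 (1.93) or 3 (1.27). On the scale of mitochondrial mRNAs it was -0.24. In NGP and the xenograft edgeR called 0 members, as it called 0% of all genes, and 4 members in each had an unadjusted p under 0.05. So had 764 of 13088 genes in NGP and 809 of 12626 in the xenograft.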

How the data were processed

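Input and m6A RIP libraries of Kelly and NGP cells and Kelly xenografts were compared as 4 experiments with the groups the labels give. The authors deposited raw counts of fragments per gene in 1 table per library. Per the file headers these were made with featureCounts 1.5.3 on GENCODE 33 protein-coding genes; the submitters' processing notes also name Trimmomatic 0.36, HISAT2 2.1.0 and GRCh38, without saying how each was used. No strand option is named, so antisense overlaps were not separated, and 11 of the 38 members share exon bases with another gene. Spike-in RNAs are not analysed here.

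Tests were two-sided edgeR 4.0.16 quasi-likelihood fits (R 4.3.3, TMM, filterByExpr with minimum count 10 and total 15), Benjamini-Hochberg adjusted at 0.05 over all genes. Each experiment was fitted alone, and SE came from the log2 value and F. RIP over input and its change were the library type and interaction terms of 1 model. RPKM used merged exon length. The fits were tested on simulated counts. Alternatives were RLE size factors, no filter, DESeq2 1.42.0, replicate blocks, all inputs in 1 fit, mitochondrial mRNA scaling, library totals and each library left out; where 1 library remained in an arm, it was assumed to vary like the others. Replicate pairs differed by more than sampling noise (chi-square divided by its degrees of freedom was at least 2.73 in 40 pairs).

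Members named with values were first the largest called input changes per class in each culture experiment, at most 5 each way, whose libraries did not overlap. The largest called response differences (at most 4 each way) and RIP changes (at most 3 each way) were named without a condition on overlap. The others were the 4 highest and 4 lowest RIP ratios, the extreme levels per class, and GARS1, KARS1, TARS3 and QARS1. NARS1 in NGP, the xenograft values and members beyond these numbers were named after their values were seen. Some items are not reported here by name, in the text or the figures, and remain in the counts. The members and lists were chosen with earlier results of these data known.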

Additional observations from a re-analysis of the deposited data

Results flagged for a closer look

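Of the responses to STM2457 that differed between experiments by a test of the difference itself, the largest are given here as log2 differences from the edgeR interaction. Between 6 days and 1 day in Kelly cells CARS1 differed by -0.84, AARS1 by -0.69, GARS1 by -0.68 and SARS1 by -0.55, each lower at 6 days, and VARS2 by 0.65, higher at 6 days. Between Kelly and NGP cells at 6 days CARS1 differed by -1.02, GARS1 by -0.96, WARS1 by -0.84 and MARS1 by -0.82, each lower in Kelly. The DMSO levels of these genes differed too, in both directions. At 6 days against 1 day in Kelly cells CARS1 (0.95), GARS1 (0.93) and SARS1 (0.81) were higher, and AARS1 (-0.11) and VARS2 (-0.32) were lower. In NGP against Kelly cells at 6 days CARS1 (-1.51), GARS1 (-1.93) and MARS1 (-0.28) were lower and WARS1 (0.50) was higher. Their part in the differences was not tested.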

How the results depend on the processing

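The counts of called members were recomputed under each alternative. Of 172 counts and levels under alternatives other than leaving out a library, 146 stayed within 1.5 times the main value (for levels, within the replicate SD). Of 771 values of named members, 707 kept direction and call, 56 lost and 2 gained the call, and 6 changed sign, all 6 under mitochondrial mRNA scaling: RIP over input in Kelly at 6 days of QARS1 (1.36), IARS2 (0.60) and VARS1 (1.26), and the change of RIP over input of IARS2 (-0.081) and FARSA (-0.25) at 1 day and TARS1 (-0.24) at 6 days. All inputs in 1 fit called 0 cytosolic and 0 mitochondrial members in Kelly at 1 day, 1 mitochondrial at 6 days, 6 cytosolic in NGP, and 6 cytosolic and 4 mitochondrial in the xenograft. That fit shares 1 estimate of the spread between experiments, and its share of all genes called is not given here. RLE called 5 mitochondrial inputs at 1 day. Without the filter 1 cytosolic input was called in NGP. For the change of RIP over input, mitochondrial mRNA scaling called 14 mitochondrial members at 1 day and 3 cytosolic and 7 mitochondrial at 6 days. This scale shifted all genes: 8356 of 13669 fell and 13 rose at 1 day, and 3843 of 13324 fell and 5 rose at 6 days. The member counts are thus no result about the members. At 6 days RLE called 0 cytosolic members, and DESeq2 2 cytosolic and 1 mitochondrial. For RIP over input in the xenograft the calls were 3 cytosolic and 3 mitochondrial with no filter, 5 and 3 with DESeq2, and 0 cytosolic with mitochondrial mRNA scaling. With library totals the DMSO medians were 36.4 (cytosolic) and 13.6 (mitochondrial) RPKM in Kelly at 1 day, 30.7 and 6.35 at 6 days, and 14.4 (cytosolic) in the xenograft.

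Leaving out 1 library at a time gave these numbers of called members, cytosolic first and then mitochondrial. Input: 13 to 17 and 2 to 4 in Kelly at 1 day, 11 to 13 and 1 to 3 at 6 days, 0 to 2 and 0 to 1 in NGP, 0 to 2 and 0 to 5 in the xenograft. RIP over input: 18 to 20 and 14 at 1 day, 14 to 19 and 10 to 12 at 6 days, 7 to 10 and 10 to 12 in NGP, 0 to 3 and 0 to 1 in the xenograft. Change of RIP over input: 6 to 10 and 0 to 4 at 1 day, 0 to 3 and 0 at 6 days, and 0 in NGP and the xenograft. Response differences: 7 to 8 and 1 to 2 between days, 1 to 6 and 0 between lines. DMSO levels: 16 to 18 and 12 to 13 between days, 15 to 18 and 3 to 8 between lines.

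Groups share replicate numbers, but same-numbered libraries did not deviate together: correlations of their deviations ran from -0.37 to 0.17. With the replicate block, 0 cytosolic changes of RIP over input were called in Kelly at 6 days in place of 1, and 2 cytosolic input changes in NGP in place of 0. The xenograft, with 2.14 to 7.27 M counts per input, limits what could be called there.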
